A study of Mus musculus with 2 samples.

Results

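The 10 genes described here, of the 32285 in the deposited matrices, encode the MHC class I presentation machinery, and they were taken as the rows whose symbol is B2m, H2-K1, H2-D1, H2-T22, Tap1, Tap2, Tapbp, Psmb8, Psmb9 or Nlrc5. All 10 symbols were found in the matrices. They were chosen by their function with UMI levels by cell class and scaffold from the same 2 libraries already seen, so their levels and differences are given as a description. MHC class I molecules carry peptides from proteins made inside a cell to its surface, where CD8 T cells and natural killer (NK) cells read them. The peptides are cut by the proteasome, moved into the endoplasmic reticulum by the TAP transporter, and loaded onto a heavy chain that is paired with beta-2-microglobulin. Nearly every nucleated cell type carries class I, and interferons are known to raise transcription of its genes.

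The cells came from a skull defect model in female Balb/c mice aged 6 weeks. A round hole 3.5 mm across was drilled into the cranial bone and plugged with a cell-free scaffold of 1 of 2 compositions, labelled Gel100 and Gel50_CS50, which is the difference the comparison addresses. At week 1 the cells of 5 mice per composition were pooled, freed with Liberase, chondroitinase and hyaluronidase, cleared of red cells, sorted for viability and run on the 10x Chromium 3' v3 kit. The labels used here do not spell out the 2 compositions. Both groups had the same defect and an implanted scaffold, and an empty defect is not among the samples used here. Each group is 1 library from 1 pool, so there are no replicates: every difference below is between 2 libraries, no test was possible, and intervals are 95% and cover counting error only.

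After filtering, 7601 Gel100 cells and 7206 Gel50_CS50 cells remained, with medians of 12707 and 16509.5 unique molecular identifiers per cell (UMIs, counts of captured RNA molecules). Of the kept cells, 11.3% and 1.42% had fewer than 1000 UMIs, and 23 cell barcodes occurred in both libraries. Cells were grouped into 34 clusters, without using the 10 genes, and 26 clusters received a class name from marker genes. The 6 main classes, with their Gel100 and Gel50_CS50 cell numbers, were macrophages and monocytes (3640 and 3635), T and NK cells (977 and 488), neutrophils (584 and 766), plasmacytoid dendritic cells (415 and 256), conventional dendritic cells (403 and 345) and stromal cells (222 and 653). The names rest on markers alone and mean cells like those types. The 8 unnamed clusters held 1251 and 908 cells. Among them, a cluster led by Ttr and Enpp2 with 920 and 119 cells lay nearest to macrophages and had a median of 831 UMIs. A cluster led by Lcn2 and Il1f9 with 31 and 635 cells lay nearest to neutrophils. Levels below are in CPM, a gene's share of all UMIs of a class in a library, times 1000000. With the 3' kit a molecule is counted once whatever its length, so levels of different genes were compared without a length correction.

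Of the 10 genes, 8 lie in the H2 complex on chromosome 17 of the mm10 build. H2-K1 (ENSMUSG00000061232, chr17:33996017-34000347, minus strand) and H2-D1 (ENSMUSG00000073411, chr17:35262730-35267499, plus strand) encode the classical heavy chains, and H2-T22 (chr17:36037128-36042747) encodes a nonclassical one. Psmb9 (chr17:34181987-34187764), Tap1 (chr17:34187553-34197225), Psmb8 (chr17:34197721-34201454) and Tap2 (chr17:34203527-34216321) follow each other in this order, and Tapbp lies at chr17:33915899-33929292. B2m is at chr2:122147686-122153083 and Nlrc5 at chr8:94434356-94527272. All 10 genes were lower in the Gel50_CS50 macrophages, so being lower does not set apart those whose promoters are printed here. Shown as examples are the promoters of the classical heavy chains, of B2m and of the Tap1 and Psmb9 pair. They are RefSeq sequences of build GRCm38.p6, written 5' to 3' on the gene's strand, with the matches to short motifs in capitals. Each ends at the base before the RefSeq start site, which can lie inside the gene span given above, as for H2-D1 and Psmb9. For Tap1 the stretch is the 225 bases between its start site and that of Psmb9, which is read from the other strand.
H2-K1 (chr17:34000334-34000513, minus strand): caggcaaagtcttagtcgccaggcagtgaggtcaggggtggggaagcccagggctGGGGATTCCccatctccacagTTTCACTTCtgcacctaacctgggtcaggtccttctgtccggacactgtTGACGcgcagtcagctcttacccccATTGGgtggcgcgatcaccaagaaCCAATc
H2-D1 (chr17:35262914-35263093, plus strand): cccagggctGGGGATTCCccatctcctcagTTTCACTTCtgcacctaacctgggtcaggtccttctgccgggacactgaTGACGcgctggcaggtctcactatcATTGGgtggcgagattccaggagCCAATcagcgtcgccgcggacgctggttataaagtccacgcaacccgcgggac
B2m (chr2:122147507-122147686, plus strand): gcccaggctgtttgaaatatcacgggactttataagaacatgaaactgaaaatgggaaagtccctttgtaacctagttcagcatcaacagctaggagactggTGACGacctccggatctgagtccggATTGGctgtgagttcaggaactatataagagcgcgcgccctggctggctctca
Tap1 (chr17:34187331-34187555, plus strand): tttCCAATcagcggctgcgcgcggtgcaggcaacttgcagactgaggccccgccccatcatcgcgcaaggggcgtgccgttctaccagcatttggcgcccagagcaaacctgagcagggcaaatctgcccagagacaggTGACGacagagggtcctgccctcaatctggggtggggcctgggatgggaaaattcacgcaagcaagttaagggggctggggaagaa

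The capitals mark exact matches, on either strand, to a kappaB-type motif (GGGGATTCC), an interferon regulatory factor (IRF) motif (GAANNGAAA, here as TTTCACTTC on the other strand), an X2-type motif (TGACG) and a Y-box (CCAAT, or ATTGG on the other strand). H2-K1 and H2-D1 held the 4 kinds in the same order with the same spacing: 21 bases from the first base of the kappaB-type to that of the IRF motif, 49 on to the X2-type motif and 25 on to the first Y-box. Over the 100 bases of that stretch, 89 were identical between both genes. B2m held an X2-type motif and a Y-box, also 25 bases apart, and Tap1 and Psmb9 share theirs. Windows of 300 bases around the start site (250 before, 50 after) were found for 8 of the 10 genes, all but Tap2 and Nlrc5. Among these 8, the Y-box was found in 7, the X2-type motif in 6, the IRF motif in 2, the kappaB-type motif in 2, and a GAS-type motif (TTCNNNGAA) in 1, Psmb8. The IRF search fixed the gap between GAA and GAAA at 2 bases. The letters gaaactgaaa in B2m and tttcactttc in H2-T22 have a wider gap and were not counted. The count therefore does not show that these genes lack such a site. Of the windows not printed, that of Psmb8 held no Y-box or X2-type motif, and that of Tapbp no X2-type motif. Both windows begin inside the gene spans given above, at chr17:34197945 and chr17:33919228. Other start sites of these genes were not searched. Of 32851 promoter windows of that length, 37.4% held the Y-box, 20.8% the X2-type, 7.52% the IRF, 8.30% the GAS-type and 0.250% the kappaB-type motif. The standard proteasome subunits with a window, Psmb5 and Psmb6, both held the X2-type motif, and Psmb6 also held the IRF motif. Neither held the Y-box, the GAS-type or the kappaB-type motif. A match describes letters in a window of the reference strain and is no evidence of binding in these cells.

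In both libraries the 10 genes together were highest in macrophages and monocytes and lowest in stromal cells. They made up 1.59% of all macrophage UMIs in Gel100 and 0.956% in Gel50_CS50, a summed level of 15947 and 9563 CPM. In stromal cells the summed level was 4503 and 2738 CPM. The other 4 classes lay between these in each library. B2m, H2-K1, H2-D1 and Tapbp were highest in macrophages in each library. Tap1, Psmb8 and Psmb9 were highest in conventional dendritic cells, a type of professional antigen-presenting cell. Stromal cells held the lowest level of 7 genes, plasmacytoid dendritic cells that of Tap1 and Tap2, and neutrophils that of H2-T22. The top class differed between the libraries for H2-T22 (macrophages in Gel100, T and NK cells in Gel50_CS50), Tap2 (neutrophils, then conventional dendritic cells) and Nlrc5 (neutrophils, then T and NK cells).

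**Figure D1:**
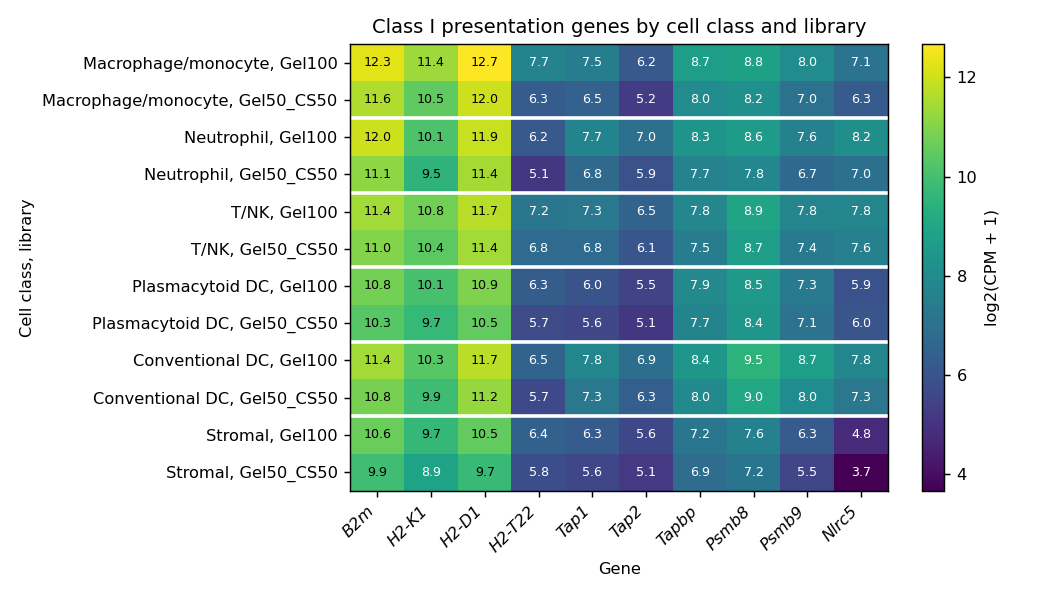
Heat map of the level of each gene, as log2(CPM + 1), with genes on the x axis and the 6 main classes in each library on the y axis. H2-D1 and B2m were the brightest columns, and in each class the Gel50_CS50 row was the darker one for every gene except Nlrc5 in plasmacytoid dendritic cells (59.8 CPM in Gel100, 65.1 CPM in Gel50_CS50).

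The 2 libraries are the spread there is between neighbours in the order of classes. For B2m, 4 of the 5 neighbouring pairs of classes had ranges over the 2 libraries that overlapped, as they did for H2-K1, H2-T22, Tap1 and Tapbp. All 5 pairs overlapped for Tap2, 3 for Psmb8 and Psmb9, and 2 for H2-D1 and Nlrc5. The step from T and NK cells to conventional dendritic cells in B2m was therefore within the difference between the libraries, at 2761 and 2043 CPM against 2717 and 1804 CPM. Macrophages stood apart from the next class for H2-D1, at 6519.9 and 4068 CPM against 3873 and 2784 CPM in neutrophils. Stromal cells stood apart at the low end for Nlrc5, at 26.7 and 11.7 CPM, where plasmacytoid dendritic cells had 59.8 and 65.1 CPM.

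Heavy chains and beta-2-microglobulin, the parts of the surface molecule, were lower in the Gel50_CS50 macrophages. B2m stood at 5088 CPM in Gel100 and 3109 CPM in Gel50_CS50, a log2 ratio of -0.71 (interval -0.72 to -0.70), where a negative ratio means lower in Gel50_CS50. H2-D1 stood at 6519.9 and 4068 CPM (log2 ratio -0.68, -0.69 to -0.67) and H2-K1 at 2638 and 1427 CPM (-0.89, -0.90 to -0.88). H2-T22, a nonclassical molecule that gamma-delta T cells can recognise, stood at 206 and 77.3 CPM, with the lowest ratio of the 10 genes in this class at -1.42 (-1.46 to -1.37). The share of H2-K1 in the UMIs of H2-K1 and H2-D1 together was 28.8% (28.7 to 28.9%) in Gel100 and 26.0% (25.8 to 26.1%) in Gel50_CS50, so the heavy chains were not lower to an equal degree. B2m per UMI of the pair was 0.556 and 0.566. Balb/c mice carry other alleles of the H2 genes than the C57BL/6 reference genome, and heavy chain genes are alike in sequence, so UMIs could be placed on the wrong one, which was not tested. With all 14 H2 class I heavy chain genes summed to 1 value the macrophage log2 ratio was -0.78, a value that an exchange of UMIs among these genes does not touch.

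Peptide transport and loading genes followed. Tap1 and Tap2 form the pump that moves peptides into the endoplasmic reticulum. In macrophages Tap1 stood at 175 CPM in Gel100 and 89.3 CPM in Gel50_CS50, and Tap2 at 72.2 and 36.9 CPM. Both log2 ratios were -0.97, and UMIs of Tap1 per UMI of Tap2 were 2.42 in each library. Tapbp (tapasin), which holds the heavy chain at the pump, stood at 417 and 258 CPM (log2 ratio -0.69, -0.72 to -0.66).

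The immunoproteasome subunits Psmb8 and Psmb9 replace standard catalytic subunits and change which peptides are cut. Psmb9 stood at 255 CPM in the Gel100 and 128 CPM in the Gel50_CS50 macrophages (log2 ratio -0.99, -1.03 to -0.96). Psmb8 stood at 439 and 292 CPM, the ratio nearest to 0 of the 10 genes in this class (-0.59, -0.62 to -0.56). Nlrc5, which switches on transcription of class I genes, stood at 137 and 76.6 CPM (-0.84, -0.89 to -0.79). All 10 genes were thus lower by more than 1.5-fold in the Gel50_CS50 macrophages, where 4.67% of the 6108 genes measured at a mean of at least 20 CPM were. Their median log2 ratio was -0.86 and that of all measured genes -0.01. Psmb8 lay closest to the limit. The median mitochondrial share of macrophage UMIs moved with this, from 1.29% to 2.10%, as did that of conventional dendritic cells, from 1.27% to 2.00%, and its part was not tested. In neutrophils it was 0.133% and 0.138%. The contrast was in view when the genes were chosen, so nothing is read from the count.

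**Figure D2:**
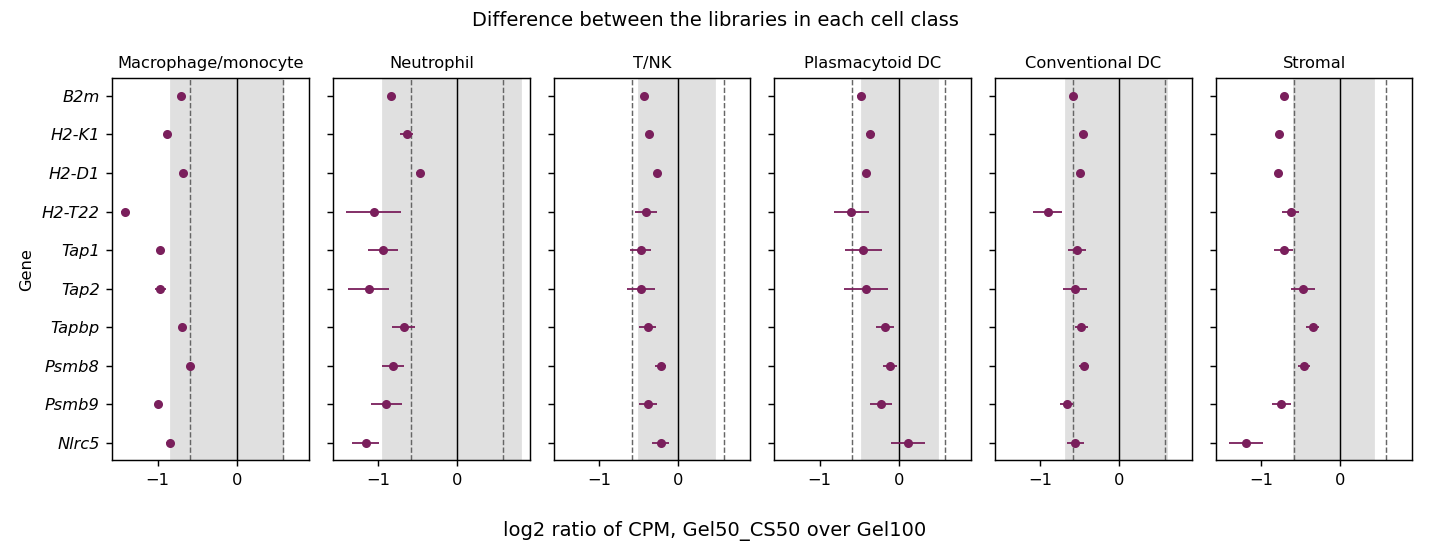
Log2 ratio of CPM, Gel50_CS50 over Gel100 (x axis), for each gene (y axis) in the 6 main classes, with 95% intervals for counting error. Dashed lines mark 1.5-fold and the grey band holds the central 95% of all measured genes of the class. Nearly all points lie left of 0, from -1.42 for H2-T22 in macrophages to 0.12 for Nlrc5 in plasmacytoid dendritic cells. Nlrc5 in stromal cells is drawn although its mean was under 20 CPM.

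Neutrophils, the granulocytes that enter a wound early, had 9 of the 10 genes lower past 1.5-fold, where 6.99% of measured genes were. Nlrc5 stood at 284 CPM in Gel100 and 127 CPM in Gel50_CS50, the lowest ratio there (-1.16, -1.34 to -0.99). Tap2 followed with 126 and 58.1 CPM (-1.12, -1.38 to -0.86). H2-D1, the exception, stood at 3873 and 2784 CPM (-0.48, -0.52 to -0.44). The class median of the 10 log2 ratios was -0.87, but it rested on how finely neutrophils were divided. With clustering at resolution 2.0 a group led by Cxcl10, Hdc and Csf1 (409 and 287 cells) lost the class name. Over the neutrophils that kept the name, 2 genes of the 10 were lower past the limit, where 17.3% of measured genes were. The median of the 10 log2 ratios there was -0.11. In the Cxcl10 group itself the summed level was 13694 CPM in Gel100 and 9637 CPM in Gel50_CS50. In the named group led by Cxcr2 (110 and 429 cells) it was 7501 and 5437 CPM, with all 10 genes lower in Gel50_CS50. The other named group, led by Retnlg and Ngp (63 and 46 cells), stood at 3056 and 2977 CPM, with 6 genes lower.

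Stromal cells, named from collagen genes and other matrix markers, had 6 of 9 measured genes lower past 1.5-fold, against 2.43% of all measured genes. H2-D1 stood at 1460 CPM in Gel100 and 846 CPM in Gel50_CS50 (log2 ratio -0.79, -0.81 to -0.76). H2-K1 stood at 810 and 475 CPM (-0.77, -0.81 to -0.73), and B2m at 1574 and 962 CPM (-0.71, -0.74 to -0.68). H2-T22 stood at 86.4 and 56.0 CPM (-0.63, -0.74 to -0.51). Psmb9 and Tap1 had log2 ratios of -0.74 and -0.71, while Psmb8 (-0.46), Tap2 (-0.47) and Tapbp (-0.35) were within 1.5-fold. Nlrc5, not counted as measured at a mean of 19.2 CPM, had -1.19 (-1.41 to -0.97) from 294 and 439 UMIs. The summed macrophage markers in the stromal cells were at 2.91% and 3.07% of their macrophage level, with none of the 10 markers at 0. In neutrophils they were at 8.05% and 8.59%, and in conventional dendritic cells at 9.61% and 11.7%. In plasmacytoid dendritic cells they were at 3.84% and 3.62%, and in T and NK cells at 3.03% and 2.13%. Their part in the values of these classes was not tested.

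Conventional dendritic cells had 3 genes lower past 1.5-fold, where 3.45% of measured genes were: H2-T22 (92.4 and 49.3 CPM, log2 ratio -0.91), Psmb9 (419 and 264 CPM, -0.67) and B2m (2717 and 1804 CPM, -0.59). All 10 ratios were below 0, with a median of -0.55. Psmb8 kept its highest level of any class here, at 719 CPM in Gel100 and 528 CPM in Gel50_CS50. T and NK cells had 0 of the 10 genes past the limit, where 1.72% of measured genes were lower and 1.54% higher past it. All 10 ratios were below 0 there too, from -0.47 (Tap1) to -0.22 (Nlrc5), with a median of -0.38. Within it, among NK cells, 0 genes passed (median -0.34), against a background of 2.07% lower and 1.24% higher. Among T cells 1 passed, Tap2 at 133 and 80.6 CPM (-0.72), with a median of -0.47, where 4.66% of measured genes were lower and 3.72% higher. Among gamma-delta T cells 2 passed, Tap1 at 164 and 95.8 CPM (-0.77) and Tap2 at 119 and 73.4 CPM (-0.70), with a median of -0.32, where 8.22% were lower and 6.47% higher. Plasmacytoid dendritic cells, known for making type I interferon, had 1 gene past the limit, H2-T22 at 79.0 and 52.2 CPM (-0.60, -0.82 to -0.38), where 1.23% of measured genes were. Nlrc5 was the exception in direction, at 59.8 CPM in Gel100 and 65.1 CPM in Gel50_CS50, with an interval of the log2 ratio that included 0 (-0.09 to 0.34). No gene of the 10 was higher past 1.5-fold in any of the 6 main classes, where 2.6% of measured genes were in macrophages, 6.3% in neutrophils, 1.4% in stromal cells, 2.71% in conventional and 1.83% in plasmacytoid dendritic cells. Differences in ratio between classes were not tested.

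The 4 small classes had fewer cells and larger backgrounds. Endothelial cells (63 and 56 cells) had 8 of 10 genes lower past 1.5-fold against a background of 14.9%, but their median UMI count was 2059 in Gel100 and 18619.5 in Gel50_CS50. Their summed stromal markers stood at 109 and 3071 CPM and their MHC class II genes at 1858 and 64.7 CPM, and the part of these in the result was not tested. Pericytes or smooth muscle cells (28 and 52 cells) had 9 lower against 14.4%, and their macrophage markers stood at 11.1% and 5.52% of the macrophage level, so these markers moved with the result. Their part in it was not tested. Mast cells or basophils (13 and 28 cells) had 1 lower against 32.8%. Osteoclasts (5 and 19 cells) had 3 lower, against 18.4%, and 1 higher, against 18.9%. In the other 3 small classes 0 were higher, where 9.63% of measured genes were in endothelial cells, 10.2% in pericytes or smooth muscle cells and 20.9% in mast cells or basophils.

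The shift could also be read cell by cell. With every cell of at least 3000 UMIs thinned to that depth, the median macrophage held 46 UMIs of the 10 genes in Gel100 (quartiles 33 and 60) and 27 in Gel50_CS50 (20 and 35). Of the Gel50_CS50 macrophages, 7.50% lay above the Gel100 median. The medians were 33 and 18 in neutrophils, with 11.6% of Gel50_CS50 cells above the Gel100 median, and 11 and 7 in stromal cells, with 22.7% above. They were 29 and 19 in conventional dendritic cells (17.3%), 28 and 21 in T and NK cells (21.2%) and 16 and 13 in plasmacytoid dendritic cells (27.7%). The thinning left out 186 macrophages of Gel100 and 37 of Gel50_CS50, 106 and 12 T and NK cells, 86 and 87 neutrophils, 70 and 4 conventional dendritic cells, 15 and 3 plasmacytoid dendritic cells, and 9 and 2 stromal cells.

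Within the macrophage class, the make-up of the libraries differed, and so did the levels inside each cluster. Macrophage cluster 1, led by Ccl5 and Ly6i among its top genes, held 29.5% of the Gel100 and 4.02% of the Gel50_CS50 macrophages, and it had the highest summed level of the 10 genes, at 20842 and 15162 CPM. Cluster 8, led by Stfa3, Arg1 and Cxcl3, held 1.10% and 19.0%, with a summed level of 15685 and 10926 CPM. In all 8 macrophage clusters the summed level was lower in Gel50_CS50, with log2 ratios from -0.74 to -0.38. When both libraries were weighted to the same clusters, 5 of the 10 genes stayed lower past 1.5-fold, where 1.48% of measured genes were, and the median log2 ratio was -0.59. These 5 were H2-T22 (-0.81), Tap2 (-0.67), H2-K1 (-0.66), Tap1 (-0.61) and Nlrc5 (-0.60), while Psmb8 stood at -0.28.

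In macrophage cluster 1 the class I genes and 2 interferon-stimulated genes differed in sign. There B2m had a log2 ratio of -0.39 (-0.42 to -0.36), H2-D1 -0.53 (-0.55 to -0.50) and H2-K1 -0.56 (-0.60 to -0.52), and H2-T22, the gene of the 10 past 1.5-fold there, had -0.61 (-0.73 to -0.49). The interferon-stimulated genes Ifit2 and Rsad2 had 0.18 (0.11 to 0.24) and 0.36 (0.32 to 0.41) in the same cells. Irf1 had -0.08 (-0.19 to 0.02). B2m, H2-D1 and H2-K1 were thus lower and Ifit2 and Rsad2 higher in the Gel50_CS50 cells of this cluster, each within 1.5-fold. The top genes of this cluster include Ifit1bl1 and Ifi214, of interferon-induced families. Cells were thus grouped there in part by such genes, and how far the signs of Ifit2 and Rsad2 depend on the grouping was not tested. Psmb8 (-0.04) and Nlrc5 (-0.11) had intervals that included 0. Stromal cluster 16, led by Mgp and Eln, had the same signs, with B2m at -0.54, H2-K1 at -0.67 and H2-D1 at -0.72, and with Ifit2 at 0.43 (22.4 and 30.0 CPM) and Rsad2 at 2.06 (15.8 and 65.7 CPM). In cluster 9, led by Cxcl10 and nearest to monocytes, both sets were lower: B2m at -0.78, H2-K1 at -0.66 and Nlrc5 at -0.75, with Ifit2 at -1.19 and Rsad2 at -0.88. Ifit2 and Rsad2 were also lower in the macrophage clusters other than 1 and 9. The interval for Rsad2 in cluster 6 included 0 (-0.19 to 0.08).

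**Figure D3:**
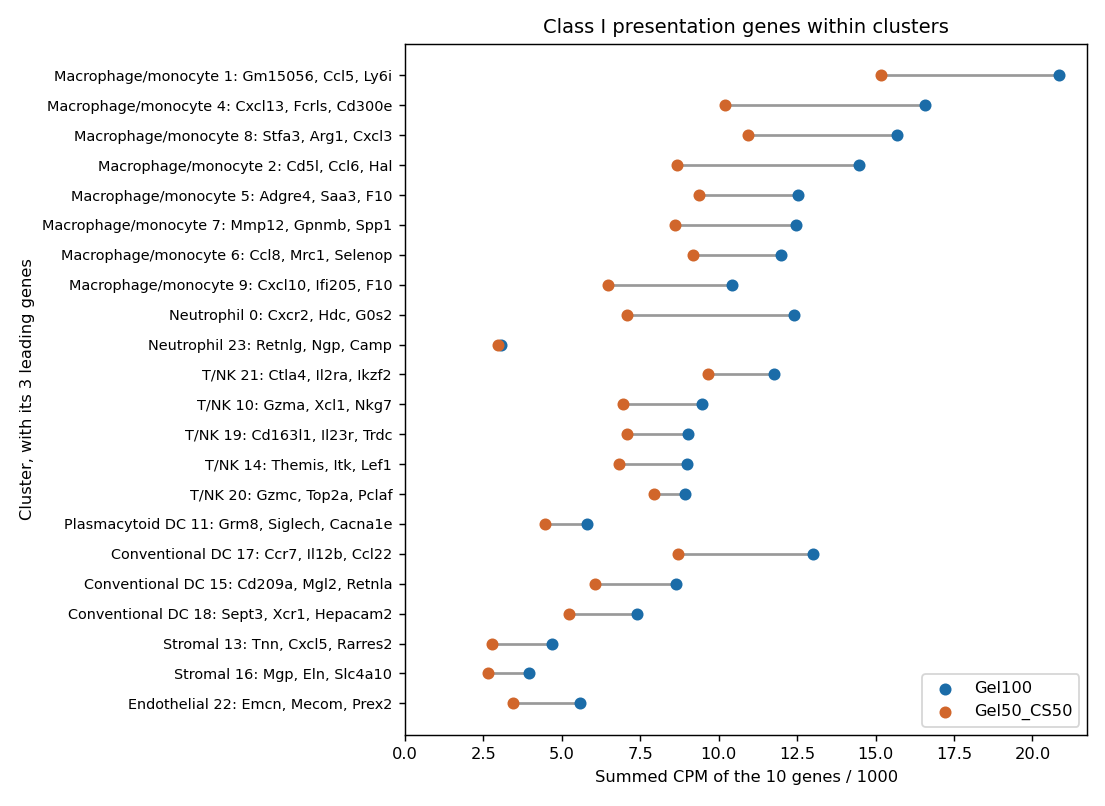
Summed CPM of the 10 genes, divided by 1000 (x axis), in each library for the 22 named clusters with at least 30 cells in both, which are listed with their class and 3 leading genes (y axis). The Gel50_CS50 point lies left of the Gel100 point in all 22, from a log2 ratio of -0.81 in neutrophil cluster 0 to -0.04 in neutrophil cluster 23, where the points nearly coincide.

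Across all 26 clusters with at least 30 cells in both libraries, unnamed ones included, the summed level was lower in Gel50_CS50, in 8 of them past 1.5-fold. Neutrophil cluster 0 stood at 12414 and 7069 CPM. Neutrophil cluster 23, led by Retnlg and the granule genes Ngp and Camp, had the lowest summed level among the neutrophils and the smallest difference, at 3056 and 2977 CPM. Among dendritic cells, cluster 17, which expressed Ccr7 and Il12b, genes of mature dendritic cells, had the highest level, at 12994 and 8690 CPM. The unnamed cluster led by Lcn2 and Il1f9 stood at 11112 and 7651 CPM.

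Each immunoproteasome subunit was next read against the standard subunit it replaces, since their ratio does not depend on scaling to a total. In macrophages Psmb8 made up 81.6% (81.2 to 82.0%) of the UMIs of Psmb8 and Psmb5 in Gel100 and 70.1% (69.6 to 70.6%) in Gel50_CS50. Psmb9 made up 59.4% (58.8 to 60.0%) and 43.7% (43.0 to 44.3%) of its pair with Psmb6. Psmb10, which is not among the 10 genes, made up 69.8% and 59.7% of its pair with Psmb7. The standard subunits themselves were within 1.5-fold, with macrophage log2 ratios of 0.33 for Psmb5, -0.07 for Psmb6 and -0.09 for Psmb7.

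In stromal cells the Psmb9 share was 37.2% (35.2 to 39.2%) and 24.8% (23.7 to 25.8%), the lowest of the 6 main classes, and the Psmb8 share was 60.4% and 52.6%. Neutrophils had the highest Psmb8 share, at 93.9% and 90.5%. Of the 18 combinations of a pair and a main class, 17 had the lower immunoproteasome share in Gel50_CS50, and in 12 of these the intervals of the libraries did not overlap. They overlapped in 5: Psmb8 and Psmb9 in neutrophils and in plasmacytoid dendritic cells, and Psmb9 in T and NK cells. The other was Psmb10 in plasmacytoid dendritic cells, at 59.1% (56.3 to 61.9%) and 60.0% (56.4 to 63.4%), also with overlapping intervals.

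**Figure D4:**
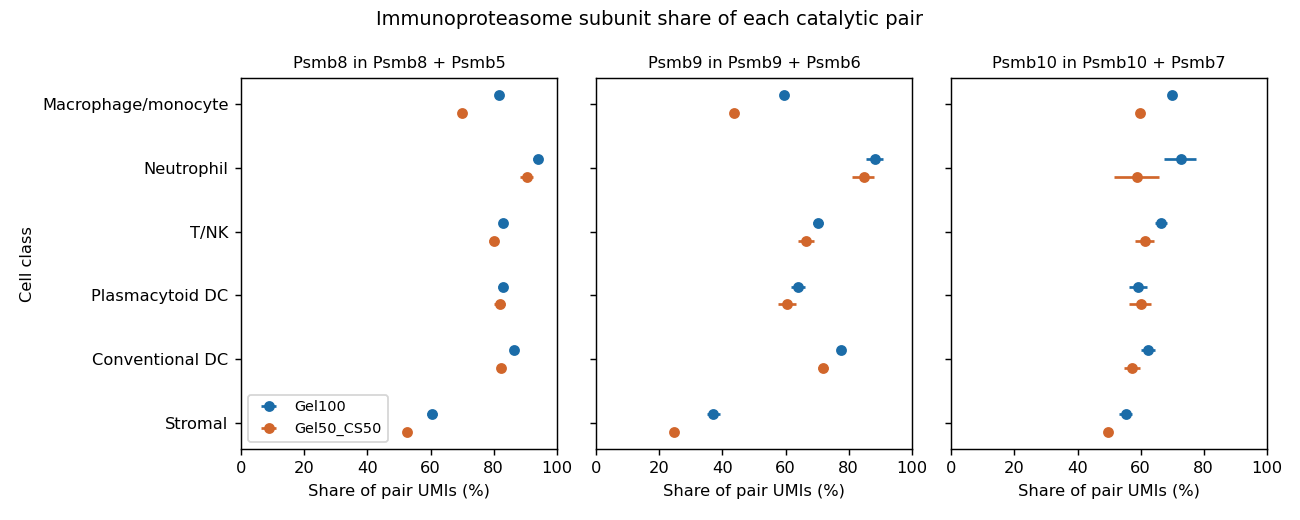
Share of the immunoproteasome subunit in the UMIs of each catalytic pair (x axis, percent) by main class (y axis) and library, with exact 95% binomial intervals. The gap between the libraries was widest for Psmb9 in macrophages, at 59.4% and 43.7%, and the points of plasmacytoid dendritic cells lie close together for Psmb8 (82.8% and 81.9%) and Psmb10.

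Other genes of the pathway were read from lists, in macrophages first. Of 8 other measured class I heavy chains and class I-like molecules, 6 were lower past 1.5-fold and 1 was higher. H2-Q6 stood at 176 CPM in Gel100 and 74.4 CPM in Gel50_CS50 (log2 ratio -1.24), H2-Q7 at 224 and 100 CPM (-1.17), H2-T23, the mouse Qa-1 molecule that NK receptors read, at 480 and 220 CPM (-1.12), and H2-Q4 at 220 and 104 CPM (-1.08). Hfe, a class I-like regulator of iron uptake, was the higher one, at 17.8 and 27.0 CPM (0.60). Of 8 other loading and trimming genes, 1 was lower, Tapbpl at 31.9 and 17.1 CPM (-0.90), and none was higher. The general chaperones of the endoplasmic reticulum in that list stood near 0, with log2 ratios of 0.22 for Calr and 0.08 for Canx.

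Of 5 other immunoproteasome and activator genes, 3 were lower, Psme2 (log2 ratio -0.79), Psmb10 (-0.73) and Psme1 (-0.62). The 3 standard catalytic subunits had 0 past the limit. Of 13 regulators of class I transcription, 4 were lower and 0 higher, among them Socs1 (-1.35), Stat2 (-0.98) and Irf1 (-0.60). All 16 measured genes of an interferon-stimulated list were lower, with a median log2 ratio of -1.20, led by Gbp6 (-1.66), Cmpk2 (-1.58), Ifit2 (-1.54) and Gbp2 (-1.51). The 7 MHC class II genes, which present peptides from outside the cell to CD4 T cells, had 0 lower and 0 higher, and a median log2 ratio of 0.22. H2-Aa stood at 560 and 654 CPM and Cd74 at 1286 and 1406 CPM. The 2 presentation pathways therefore had medians of opposite sign in the same macrophages, -0.86 and 0.22. That difference was not tested.

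The same lists ran differently by class. In stromal cells 4 of 5 measured genes of the list of other heavy chains and class I-like molecules were lower past 1.5-fold. Among them were H2-Q6 at 54.2 and 18.2 CPM (log2 ratio -1.57) and H2-Q7 at 53.5 and 18.7 CPM (-1.51). Of the 5 other immunoproteasome and activator genes 0 passed there. In neutrophils 3 of 5 other heavy chain and class I-like genes were lower. So were 4 of 4 other immunoproteasome and activator genes, among them Psmb10 at 85.1 and 33.6 CPM (-1.34). In conventional dendritic cells these counts were 3 of 9 and 0 of 5, in plasmacytoid dendritic cells 2 of 6 and 0 of 4, and in T and NK cells 2 of 8 and 0 of 5. MHC class II had 0 of 7 lower in conventional dendritic cells, which carry it at high levels (median -0.02), and 0 of 7 in plasmacytoid dendritic cells (-0.05). It had 4 of 4 measured genes lower in T and NK cells (-1.04), 2 of 4 in neutrophils (-0.39), and 0 of 4 lower and 1 higher in stromal cells (0.35). The summed class II level in T and NK cells was 197 and 106 CPM, and their macrophage markers moved with it, at 3.03% and 2.13% of the macrophage level. Of the interferon-stimulated list, 15 of 15 measured genes were lower in neutrophils, 12 of 15 in conventional dendritic cells, 11 of 15 in stromal cells, 10 of 14 in T and NK cells and 5 of 9 in plasmacytoid dendritic cells, and none was higher.

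The pattern of the 10 genes over the 6 main classes in both libraries, 12 points that share 2 libraries, was compared with that of 6651 other genes. The mean of the z-scored log2(CPM + 1) values of the 10 genes was closest to H2-Q6 (Pearson r 0.94), Daxx (0.93) and Epsti1 (0.93). Ifi35 (0.91), Actr2 (0.90), Uba7 (0.89), Ppp4c (0.89), Ilrun (0.88) and Gna13 (0.86) were also among the 10 closest. Each of the 10 genes was also set against the mean of the other 9. H2-T22 was least like the rest (0.53) and H2-D1 most (0.89), which describes these 12 points and no more.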

How the data were processed

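The authors deposited 1 matrix of UMI counts per gene and barcode for each library, without normalization, made with Cell Ranger 6.0.2 per the file headers, on mm10 per the submitters' processing notes. How reads shared by near-identical genes were counted is not stated in these sources. Barcodes with at least 200 genes, 500 UMIs and under 20% mitochondrial counts were kept (65 of 7845 Gel100 and 117 of 7515 Gel50_CS50 barcodes were removed), and Scrublet removed 179 and 192 doublets. Total UMIs were 108847835 and 150311308. Cells were clustered in scanpy 1.11.5 with leidenalg 0.10.2 on 3000 variable genes (the 10 genes and all lists left out), 30 principal components, 15 neighbours and resolution 1.0, with no integration. Clusters were named from marker lists (score of at least 1.5, lead of at least 0.5, 3 markers in at least 10% of cells), and stayed unnamed at a median under 1000 UMIs or under 0.333 of their library's with no own marker among the top 10 genes. These naming limits were set after seeing the data. Counts were summed per class and library and scaled to CPM, and log2 ratios carry exact conditional binomial intervals (scipy 1.17.1), shares exact Clopper-Pearson ones. The computation was tested on simulated data. Called means past 1.5-fold among genes whose mean was 20 CPM or more. Other genes were named by a rule: from each list, up to 4 per direction past 1.5-fold in macrophages, and the 10 genes most like the mean of the 10; other list genes and the clusters described singly were picked after their values were seen, and 1 gene that the rule names is not reported here. The 10 genes and the lists were chosen with earlier results of these data known. Coordinates are from GENCODE vM21 (99.6% of identifiers matched).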

Additional observations from a re-analysis of the deposited data

How the results depend on the processing

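No paired analysis was possible because each scaffold is 1 library, and for the same reason no replicate could be left out. Over all recomputed counts, 155 stayed within 1.5 times their value and 16 did not. Of the other values, single ratios and medians, 607 stayed close, 125 moved and 2 reversed. Counts of genes lower past 1.5-fold went from 10 to 5 in macrophages with the same cluster weights, from 9 to 2 in neutrophils at resolution 2.0, from 6 to 3 in stromal cells at a minimum mean of 100 CPM, which tests 5 genes, and from 0 to 1 in T and NK cells thinned to 3000 UMIs. In conventional dendritic cells the count of 3 became 1 with cells gated by their own markers, 6 with doublets kept and 1 without dendritic cluster 15. In plasmacytoid dendritic cells the count of 1 became 2 with thinned cells and 0 with each cell weighted equally, resolution 2.0, a minimum of 100 CPM, centring on the median gene, unnamed clusters given to their nearest class, or heavy chains summed. Plasmacytoid dendritic cells had the lowest level of 0 genes with thinned cells (2 before), and T and NK cells the highest of 0 with gated cells (1 before), both by the mean of the libraries. The 2 reversals were both in neutrophils at resolution 2.0: H2-K1 at 0.035 and Psmb8 at 0.16. All 10 genes were lower in the named group led by Cxcr2 there (110 and 429 cells). The low-level group led by Retnlg and Ngp held 63 and 46 cells, and the part of this make-up was not tested. The cause of these changes was not tested. Without macrophage clusters 1 and 9, 8 genes stayed lower, with a median of -0.73. Of all measured genes, 1.48% were lower past 1.5-fold in macrophages with the same cluster weights (4.67% before). In neutrophils at resolution 2.0 the share was 17.3% (6.99% before). For the other settings the share of all measured genes is not given, so nothing is read from those counts. Leaving out clusters and placing unnamed ones were chosen after seeing the data. Depth limits all 4 small classes. Nlrc5 in stromal cells was left out of the counts by its level, a mean of 19.2 CPM against the limit of 20 CPM.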

Other observations

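The receptors that read class I and the cells that carry them were also measured. Of 8 such receptor genes measured in T and NK cells, 0 were past 1.5-fold, and Klrd1 stood at 389 CPM in Gel100 and 320 CPM in Gel50_CS50 (log2 ratio -0.28). Klrk1, which encodes the activating receptor NKG2D, stood at 410 and 342 CPM there (-0.26). The make-up of that class moved with these values, with NK markers at 3691 and 2556 CPM and gamma-delta T markers at 419 and 702 CPM. Within NK cells alone the median of the 7 measured receptors was -0.10, with 0 past 1.5-fold. Within T cells alone 3 of 10 measured receptors were lower past 1.5-fold (median -0.34), where 4.66% of measured genes were. Of 2 measured in gamma-delta T cells, 1 was higher, where 6.47% of measured genes were. In macrophages Klrk1 stood at 73.1 and 21.3 CPM (-1.78, -1.86 to -1.70), while the 10 NK markers summed to 7.81 and 1.74 CPM in the same cells. Their part in that value was not tested. T and NK cells made up 12.9% and 6.77% of the kept cells. Ifng, the type II interferon that T and NK cells make, stood at 118 and 58.7 CPM in that class (interval of the log2 ratio -1.18 to -0.82).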
